A study of Homo sapiens with 12 samples.

Results

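Messenger RNA of 10 myeloid surface antigens and receptors was followed in OCI-AML2 cells, a human acute myeloid leukaemia line, in which MEF2C was placed under doxycycline control. The genes were chosen by symbol from the 55765 genes of the count table: CD33, CLEC12A, IL3RA, CD38, CD44, CD47, CD86, FCGR2A, PTAFR and CLEC4D. Of these 10, 9 had enough counts to be tested and IL3RA was listed at 0 in every library.

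MEF2C is a transcription factor of blood, muscle and brain, and S222A replaces a serine of the protein with an alanine that cannot be phosphorylated. The 4 groups were cells with inducible S222A MEF2C given doxycycline, the same line given vehicle, cells with inducible wild-type (WT) MEF2C given doxycycline, and that WT line given vehicle. Each group had 3 libraries, and the cells were collected after 48 h. All cells carried a construct and were grown as single-cell clones, so the S222A and WT lines differ by clone as well as by allele, and the number of clones was not stated. Doxycycline-treated cells without a construct were not analysed here, so an effect of the drug and an effect of the construct cannot be told apart within a line. No label says that the 3 libraries of a group came from separate cultures, so the p-values measure the spread between these libraries, which may be technical.

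Surface antigens of this kind are how leukaemia cells are recognised, by a flow cytometer, an antibody drug or the immune system. CD33, CLEC12A, the interleukin-3 receptor chain IL3RA, CD38, CD44 and CD47 have all been pursued as targets on leukaemia cells. FCGR2A, CD86, PTAFR and CLEC4D are receptors and ligands of mature phagocytes and antigen-presenting cells, and their levels usually climb as myeloid cells mature. RNA levels were measured here, and the amount of protein at the cell surface was not.

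Library totals ran between 875710 and 13134791 counts, so that 3 counts, taken as the floor, stand for 0.239 to 3.36 CPM, the usual scaling of counts to a common library size (here after TMM scaling). The deepest library of each group stood apart from the other 8 on the first principal component, which held 33.1% of the variance, with scores of 33.5 to 44.41 against -51.31 to -2.16. The induced gene itself differed little by RNA: MEF2C averaged 887.3 ± 89.39 CPM in S222A induced cells and 702.5 ± 98.16 CPM in S222A uninduced cells (SD, n = 3 each; log2 fold change 0.34, edgeR adjusted p = 0.285). MEF2C averaged 777 ± 90.26 CPM in WT induced and 736.3 ± 86.17 CPM in WT uninduced cells (log2 fold change 0.08, edgeR adjusted p = 1). The labels of the induced groups therefore rest on the descriptions and were not borne out by a called rise of MEF2C. Myeloid factors were detected in every group: MYB was between 405.3 and 709.6 CPM and SPI1, which encodes PU.1, between 34.98 and 73.13 CPM, while CEBPA, the granulocyte factor, was listed at 0. The annotation and strand setting of the counts are not given, so this 0 cannot be read as absence of CEBPA RNA. The summed level of the 12 genes of the myeloid identity list was 1024 to 1203 CPM in S222A induced cells, 1869 to 2031 CPM in S222A uninduced cells, 1068 to 1332 CPM in WT induced cells and 1205 to 1428 CPM in WT uninduced cells. Of its 10 tested genes 5 were called lower and 0 higher on S222A induction, against 1.66% and 2.8% of all tested genes. The 3 with the smallest adjusted p were CTSG, PRTN3 and AZU1 (edgeR adjusted p = 0.00034, 0.00771 and 0.00862). Their log2 fold changes were -1.66, -1.68 and -1.47. CTSG stayed called without any of the 12 libraries, while PRTN3 and AZU1 were each lost without 1 S222A library. Summed T-cell markers reached at most 3.117 CPM and summed B-cell markers at most 11.64 CPM.

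Ordered by level per length, the antigens used as leukaemia targets led the phagocyte receptors among the 9 tested genes. IL3RA, listed at 0, is left out of this order. CD44, the hyaluronan receptor, had the highest level, with a median over the 12 libraries of 53.13 CPM per 1000 exon bases (range 42.07 to 78.38). CLEC12A, an inhibitory C-type lectin of leukaemic blasts and myeloid cells, followed with a median of 36.03 (22.73 to 53.08), and its range stayed below that of CD44 within each of the 4 groups. CD47, the "don't eat me" ligand of the phagocyte receptor SIRPA, came next with a median of 18.22, ahead of CD33 at 15.56 and the NAD-consuming ectoenzyme CD38 at 11.28 CPM per 1000 exon bases. CD47 and CD33 overlapped in 3 groups and were separate in S222A induced cells. FCGR2A, PTAFR, CLEC4D and CD86 had medians of 4.923, 3.232, 1.01 and 0.7529 CPM per 1000 exon bases.

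**Figure D1:**
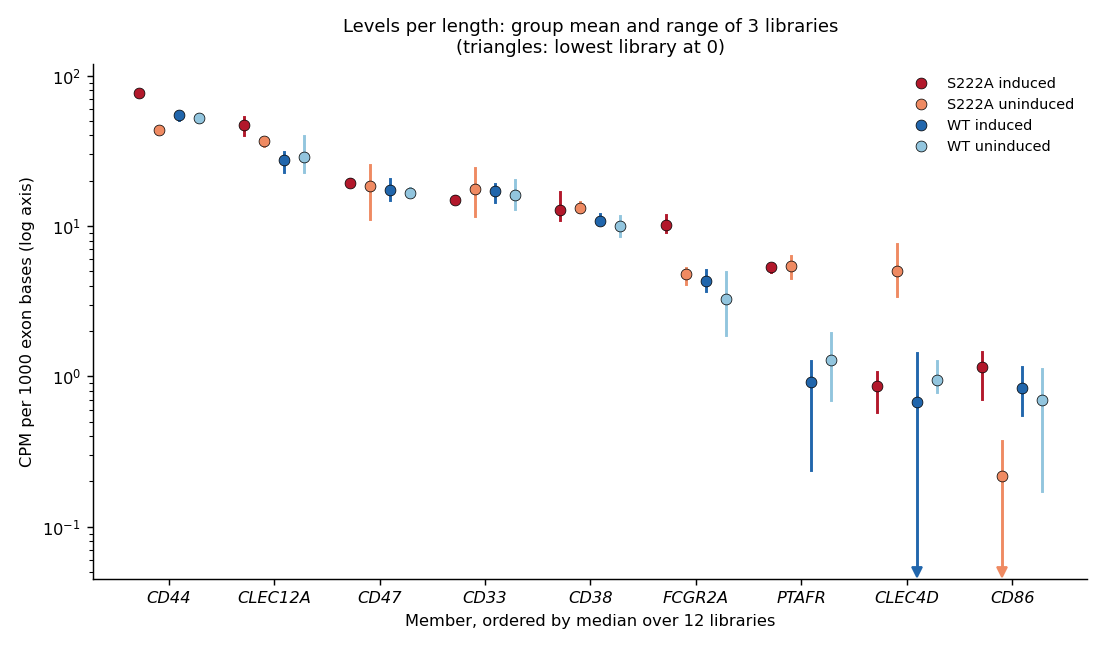
Level per length of the 9 tested genes in CPM per 1000 exon bases on a log axis; points are group means, vertical lines span the 3 libraries of a group, and triangles mark groups whose lowest library was at 0. CD44 lies above CLEC12A in every group, and the phagocyte receptors FCGR2A, PTAFR, CLEC4D and CD86 lie lowest, with medians between 0.7529 and 4.923.

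The letters just before the start are shown for the 4 genes called between the induced lines and, beside them, for CD33, which was called in no comparison. They are 100 bases ending at the base before the RefSeq start, on build GRCh38.p14, read 5′ to 3′ on the gene's own strand. The capitals mark the letters GAGGAA or their reverse complement TTCCTC (a core of PU.1 sites) and TGTGGT (a core of RUNX sites). The window at the other PTAFR start, which holds TGANTCA (AP-1), is not shown. The count table rests on build hg19, so these positions serve only to identify the sequences.
CD44 at chr11:35139071-35139170, plus strand: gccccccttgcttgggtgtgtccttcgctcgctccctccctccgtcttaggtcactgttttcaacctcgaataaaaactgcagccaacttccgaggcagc
FCGR2A at chr1:161505357-161505456, plus strand: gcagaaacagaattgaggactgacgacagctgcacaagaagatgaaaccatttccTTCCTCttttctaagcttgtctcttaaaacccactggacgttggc
CLEC12A at chr12:9971309-9971408, plus strand: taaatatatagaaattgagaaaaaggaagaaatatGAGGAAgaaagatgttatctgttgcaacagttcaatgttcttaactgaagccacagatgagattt
PTAFR, second start, at chr1:28176691-28176790, minus strand: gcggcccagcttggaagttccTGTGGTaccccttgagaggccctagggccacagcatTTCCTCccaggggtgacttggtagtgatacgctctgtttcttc
CD33 at chr19:51224980-51225079, plus strand: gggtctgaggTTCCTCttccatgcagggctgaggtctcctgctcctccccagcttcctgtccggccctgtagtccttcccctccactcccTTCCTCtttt

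The 300-base RefSeq promoters, 250 bases before to 50 after the start, were present for 9 of the 10 genes, all but CLEC4D. GAGGAA on either strand was found in a promoter of 5 of these 9 genes (CD33, CLEC12A, CD86, FCGR2A and PTAFR), against 27.9% of all 35116 promoters. A gene was counted if any of its starts held the letters, and CD86, PTAFR and IL3RA have more than 1 promoter in the table, so gene and promoter shares are not on the same footing. TGTGGT was found in 3 of the 9 genes, against 13.1% of all promoters, TTGCNNAA (C/EBP) in 2, against 10.5%, and TGANTCA in PTAFR alone, at its other start, against 7.71%. The MEF2 consensus was found in 0 of the 9 genes, against 2.99% of all promoters. For CLEC12A, CD47 and both starts of CD86 the first bases from the start were not found in a GENCODE transcript of the gene. Such letter matches describe these windows and say nothing of binding.

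CD44 was the only member called higher with doxycycline in the S222A line. It encodes the adhesion receptor that holds leukaemia cells to hyaluronan in the marrow. CD44 had 461.0, 478.3 and 453.5 CPM in S222A induced cells, against 256.7, 269.2 and 274.9 CPM in S222A uninduced cells. The groups were far apart relative to their spread, with means of 464.2 ± 12.72 and 266.9 ± 9.296 CPM (SD, n = 3 each), a 1.74-fold rise (log2 fold change 0.80, SE 0.13, 95% interval 0.52 to 1.08, edgeR adjusted p = 0.00394). In the WT line CD44 had 311.6, 331.8 and 351.9 CPM in induced cells, against 339.1, 299.6 and 316.6 CPM in uninduced cells. Those groups overlapped, and the log2 fold change of 0.06 had an interval of -0.21 to 0.33 (edgeR adjusted p = 1). The induction effects of the S222A and WT lines differed by 0.74 on the log2 scale (SE 0.18, interval 0.35 to 1.13), a difference that was not called (edgeR adjusted p = 0.321, unadjusted p = 0.00119) and was called with DESeq2 (adjusted p = 0.00239; 0.347% of all tested genes called) and with a term for the deepest libraries (edgeR adjusted p = 0.0152; 1.28% called). The 1.74-fold rise was as large within depth classes, with log2 differences of 0.82 between the deepest libraries and 0.79 between the means of the others, and it remained called when any of the 12 libraries was left out.

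CLEC4D was lower in S222A induced than in S222A uninduced cells, but it passed the filter on low counts through S222A uninduced cells alone, the group in which it was high, so its test carries no weight of its own. It is a C-type lectin of macrophages and neutrophils that senses mycobacterial glycolipid. CLEC4D had 2.078, 1.115 and 1.833 CPM in S222A induced cells (6, 5 and 23 counts), against 6.607, 14.77 and 7.666 CPM in S222A uninduced cells (55, 36 and 7 counts). The groups did not overlap, and the fit gave a 5.70-fold lower level (log2 fold change -2.51, SE 0.65, interval -3.91 to -1.11, edgeR adjusted p = 0.0464). The WT line had 2.777, 1.121 and 0 CPM when induced and 1.514, 1.545 and 2.451 CPM when uninduced (19, 1 and 0 counts against 3, 8 and 6), and no library outside S222A uninduced cells reached the filter's cutoff of 3.046 CPM. The call was lost when any of the 6 S222A libraries was left out, with edgeR adjusted p-values of 0.0739 to 0.207, the highest without S222A uninduced replicate 2. The summed level of the monocyte markers was 84.26 to 109 CPM in S222A induced and 180.3 to 247.5 CPM in S222A uninduced cells. It was 54.48 to 61.66 CPM in WT induced and 64.14 to 86.53 CPM in WT uninduced cells. Most of the sum was S100A9, which averaged 55.51 ± 14.87 CPM in S222A induced and 155 ± 47.52 CPM in S222A uninduced cells. Of the 15 genes of that list, 6 were tested on S222A induction, where 1.66% of all tested genes were called lower and 2.8% higher. S100A9 and S100A8 were called lower on S222A induction (edgeR adjusted p = 0.00759 and 0.0137), and none was called higher. ITGAX ran the other way, at 7.684 ± 0.8714 CPM in S222A induced and 2.979 ± 1 CPM in S222A uninduced cells. FCGR3A, CD68 and FCN1 were listed at 0 in every library, which cannot be read as absence of their RNA. The part of these markers in the lower level of CLEC4D was not tested. In bulk RNA, fewer cells of a kind and less RNA per cell cannot be told apart.

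FCGR2A, the activating low-affinity IgG receptor of phagocytes, had the largest log2 change on S222A induction among the 6 members above the filter in all 12 libraries, and missed the threshold. It had 22.86, 28.76 and 22 CPM in S222A induced cells, against 12.73, 11.9 and 9.856 CPM in S222A uninduced cells. The groups did not overlap, and the 2.07-fold higher level (log2 fold change 1.05, SE 0.28, interval 0.45 to 1.65) had an edgeR adjusted p of 0.0511. It was called with DESeq2 (adjusted p = 0.0167; 7.07% of all tested genes called) and limma-voom (adjusted p = 0.0268) and not when any of the 6 S222A libraries was left out (edgeR adjusted p = 0.0949 to 0.183). The WT line had 10.45 ± 1.722 CPM when induced and 7.91 ± 3.686 CPM when uninduced (SD, n = 3 each; log2 fold change 0.34, interval -0.32 to 1.00, edgeR adjusted p = 1). FCGR2A shares 16.7% of its 50-base words with other genes, 14.9% with its near copy FCGR2C, so reads could be split between them; FCGR2C had 5 and the inhibitory FCGR2B 6 counts over all libraries.

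CD86, the costimulatory ligand that antigen-presenting cells offer to T cells, lay near the floor. Only 4 libraries reached the filter's cutoff, 2 of them S222A induced, so its pass leaned on the group in which CD86 was high. It had 3.81, 4.237 and 2.073 CPM in S222A induced cells (11, 19 and 26 counts), against 1.081, 0.8208 and 0 CPM in S222A uninduced cells (9, 2 and 0 counts). The groups did not overlap, yet the log2 fold change of 1.86 had an SE of 0.66 and was not called (edgeR adjusted p = 0.135). WT induced cells had 1.608, 3.363 and 2.368 CPM and WT uninduced cells 0.5047, 2.318 and 3.268 CPM. Its sister ligand CD80 had 4 counts over all libraries and was not tested.

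CLEC12A was also separate between the S222A groups without a called change. It had 108.4, 122.2 and 93.02 CPM in S222A induced cells, against 78.44, 87.42 and 88.7 CPM in S222A uninduced cells (log2 fold change 0.35, SE 0.21, interval -0.11 to 0.81, edgeR adjusted p = 0.416). In the WT line it averaged 63.73 ± 10.14 CPM when induced and 66.21 ± 21.23 CPM when uninduced (SD, n = 3 each). CLEC12A exons overlap those of CLEC1B on the other strand, and the strand setting is not given in the sources used here, so their reads cannot be told apart where they overlap. CLEC1B had 1700 counts and CLEC12A 4257, and CLEC1B had a log2 fold change of 0.14 on S222A induction (edgeR adjusted p = 0.786).

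CD33, CD38, CD47 and PTAFR gave no called change on induction of either construct. CD33, the sialic acid-binding inhibitory receptor, averaged 35.12 ± 2.28 CPM in S222A induced cells and 41.85 ± 15.35 CPM in S222A uninduced cells (SD, n = 3 each; log2 fold change -0.21, interval -0.74 to 0.32, edgeR adjusted p = 0.729). CD38 averaged 72.92 ± 19.42 CPM in S222A induced cells and 74.86 ± 5.891 CPM in S222A uninduced cells (edgeR adjusted p = 0.955). The spread of CD38 came from S222A induced replicate 3, the deepest of its group, at 95.34 CPM beside 61.65 and 61.76 CPM. CD47 averaged 102.6 ± 5.496 CPM in S222A induced cells and 97.05 ± 37.41 CPM in S222A uninduced cells, where its libraries had 133.9, 98.09 and 59.13 CPM (edgeR adjusted p = 0.95). In the WT line CD33 averaged 40.78 ± 5.636 CPM when induced and 38.37 ± 8.926 CPM when uninduced, CD38 averaged 61.42 ± 5.537 and 56.9 ± 8.754 CPM in induced and uninduced WT cells, and CD47 averaged 91.1 ± 15.03 and 88.1 ± 5.509 CPM in induced and uninduced WT cells (SD, n = 3 each). Those groups overlapped for all 3 genes. PTAFR averaged 24.99 ± 1.382 CPM in S222A induced cells and 25.34 ± 4.118 CPM in S222A uninduced cells, and its log2 fold change of 0.00 had an interval of -0.66 to 0.66 (edgeR adjusted p = 0.999).

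The counts below cover the 8 members with libraries above the filter's cutoff in more than 1 group. The members were chosen with earlier results of these data known. Their shares beside those of all genes are therefore a description and no test. S222A induction gave 1 called higher (CD44), 0 called lower and 7 not called. Of all 11474 tested genes, 4.45% were called in either direction, 2.8% higher and 1.66% lower. CLEC4D is left out of this and the next counts. CD86 is among the 8, but 2 of its 4 libraries above the cutoff were S222A induced, its highest group. Its pass leaned on that group, so its part in these counts carries no weight of its own. Groups did not overlap for 4 of the 8 (CD44, FCGR2A, CD86 and CLEC12A), against 27.5% of all tested genes. The median log2 fold change was 0.20 over the 8 and 0.01 over all tested genes. WT induction gave 0 called members, against 0.00872% of all tested genes; with edgeR 0 members and 195 genes had an unadjusted p under 0.05, and DESeq2 called 0 members and 0.0349% of all genes. No member had separate groups on WT induction, against 5.79% of all tested genes, and the median log2 fold change was 0.06 over the 8 members and 0.01 over all genes. The difference of the induction effects was called for 0 members with edgeR, against 0.0784% of all tested genes; at an unadjusted p under 0.05 there were 1 member, CD44, and 766 genes, and DESeq2 called CD44. For CLEC4D, set apart as above, that difference was -2.27 on the log2 scale (SE 1.02, edgeR adjusted p = 0.74).

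**Figure D2:**
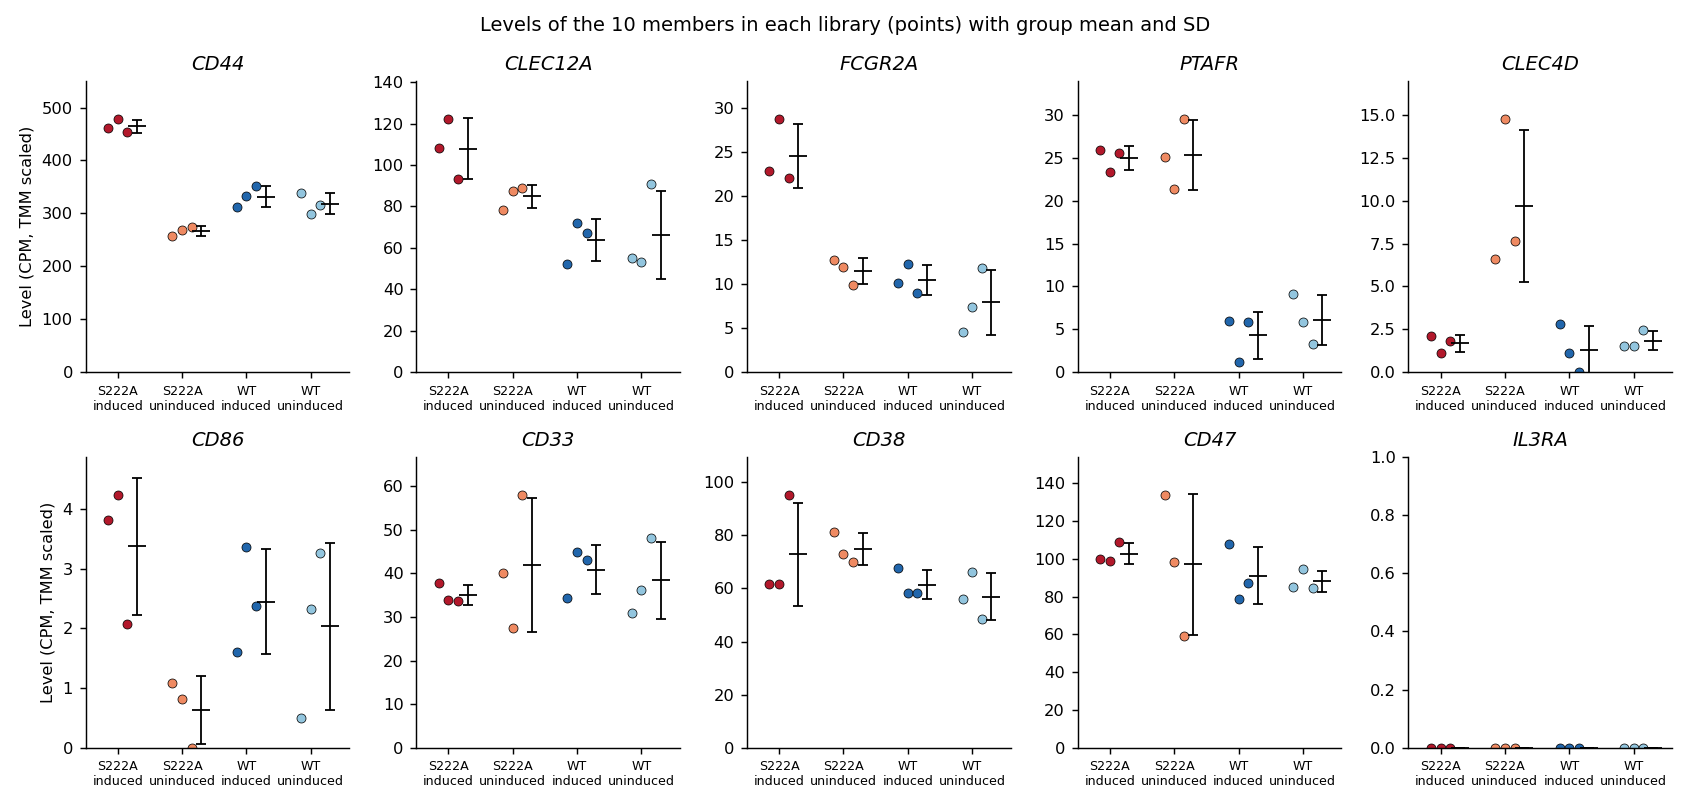
CPM of the 10 members in each library, 1 panel per gene, with S222A induced, S222A uninduced, WT induced and WT uninduced cells from left to right; points are libraries, bars are group means with SD (n = 3), and a bar that would pass below 0 is cut at 0. CD44 lies at 453.5 to 478.3 CPM in S222A induced cells and at or below 351.9 CPM elsewhere, and PTAFR is high in both S222A groups.

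**Figure D3:**
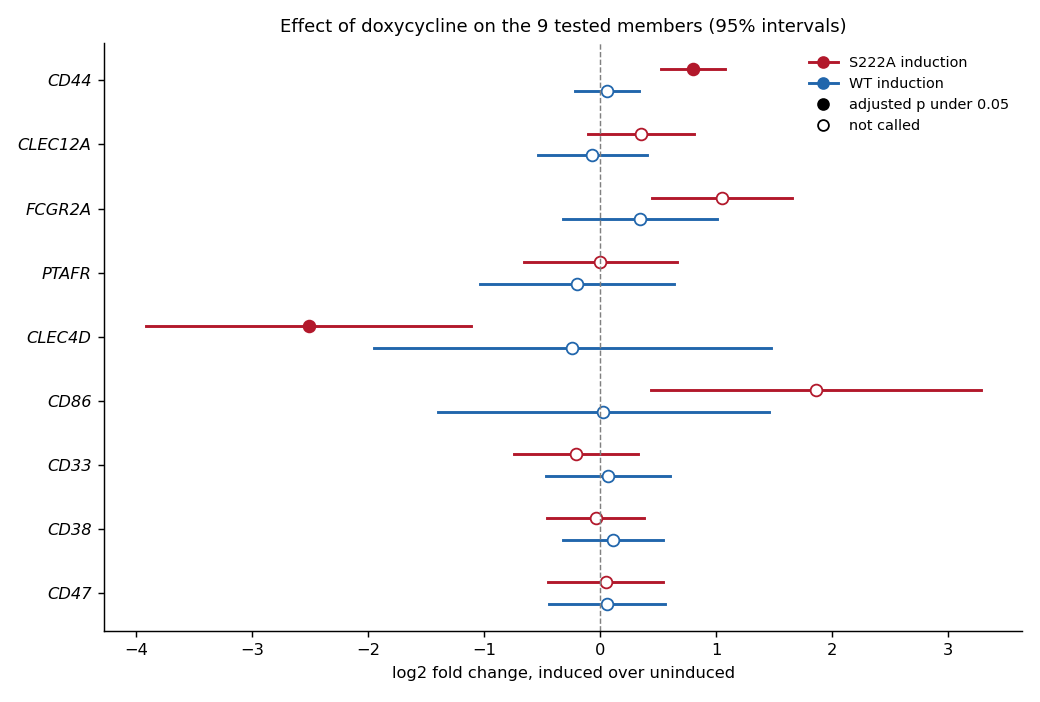
Log2 fold change of the 9 tested members on induction, with 95% intervals, in the S222A line and the WT line; filled points had an edgeR adjusted p under 0.05. The S222A interval of CD44 lies at 0.52 to 1.08 and that of CLEC4D at -3.91 to -1.11, while in the WT line no member was called.

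PTAFR separated the lines whether or not doxycycline had been given. It encodes the G protein-coupled receptor for platelet-activating factor, a lipid mediator of neutrophils and monocytes. PTAFR had 25.98, 23.41 and 25.59 CPM in S222A induced cells (75, 105 and 321 counts), against 5.992, 1.121 and 5.79 CPM in WT induced cells (41, 1 and 22 counts). It had 25.11, 21.34 and 29.57 CPM in S222A uninduced cells, against 9.084, 5.794 and 3.268 CPM in WT uninduced cells. The 6 S222A libraries all lay above the 6 WT libraries. The level was 4.83-fold higher in S222A than in WT induced cells (log2 fold change 2.27, SE 0.35, interval 1.52 to 3.03, edgeR adjusted p = 0.00253) and 4.20-fold higher in S222A than in WT uninduced cells (log2 fold change 2.07, SE 0.35, interval 1.31 to 2.84, edgeR adjusted p = 0.0225). The induced difference remained called without any of the 12 libraries, with edgeR adjusted p-values up to 0.0186. The uninduced difference was lost when any of its 6 libraries other than WT uninduced replicate 1 was left out, with edgeR adjusted p-values up to 0.121, the highest without WT uninduced replicate 3. Clone and allele cannot be told apart in this difference.

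CD44, FCGR2A and CLEC12A were also higher in S222A than in WT induced cells. FCGR2A averaged 24.54 ± 3.682 CPM in S222A induced cells and 10.45 ± 1.722 CPM in WT induced cells (SD, n = 3 each), a 2.42-fold difference (log2 fold change 1.28, SE 0.28, interval 0.66 to 1.89, edgeR adjusted p = 0.0194). CLEC12A averaged 107.9 ± 14.59 CPM in S222A induced cells and 63.73 ± 10.14 CPM in WT induced cells, a 1.71-fold difference (log2 fold change 0.77, interval 0.31 to 1.24, edgeR adjusted p = 0.0497). CD44 averaged 464.2 ± 12.72 CPM in S222A induced cells and 331.8 ± 20.12 CPM in WT induced cells, a 1.40-fold difference (log2 fold change 0.48, interval 0.21 to 0.76, edgeR adjusted p = 0.0392). The groups of all 3 genes were separate, but the calls of CD44 and CLEC12A were lost when any of their 6 libraries was left out, with edgeR adjusted p-values of 0.0972 to 0.14 for CD44 and 0.0696 to 0.176 for CLEC12A. The call of CD44 was also lost with no filter on low counts (edgeR adjusted p = 0.264) and without the deepest library of each group (edgeR adjusted p = 0.0689). The call of FCGR2A was lost without S222A induced replicate 1 (edgeR adjusted p = 0.0529) or 2 (0.0844) and without WT induced replicate 1 (0.0532) or 3 (0.101).

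Before induction none of these 3 genes was called between the lines. CD44 was lower in every S222A uninduced library than in any WT uninduced library, at 266.9 ± 9.296 against 318.4 ± 19.85 CPM (SD, n = 3 each), a difference that was not called (log2 fold change -0.25, interval -0.53 to 0.02, edgeR adjusted p = 0.72). FCGR2A had a log2 fold change of 0.57 (edgeR adjusted p = 0.751) and CLEC12A averaged 84.85 ± 5.591 CPM in S222A uninduced and 66.21 ± 21.23 CPM in WT uninduced cells (edgeR adjusted p = 0.792). CLEC4D averaged 9.682 ± 4.442 CPM in S222A uninduced and 1.837 ± 0.5323 CPM in WT uninduced cells, a 5.28-fold difference with separate groups, through the only group above the filter, that was not called (log2 fold change 2.4, SE 0.69, edgeR adjusted p = 0.288). It was called with no filter on low counts (edgeR adjusted p = 0.0118) and with a term for the deepest libraries (edgeR adjusted p = 0.0361; 1.9% of all tested genes called). CD38 had 81.44, 73.05 and 70.09 CPM in S222A uninduced cells, against 56.02, 66.06 and 48.62 CPM in WT uninduced cells, separate but not called (edgeR adjusted p = 0.72). After induction CLEC4D averaged 1.675 ± 0.5006 CPM in S222A cells and 1.299 ± 1.397 CPM in WT cells (edgeR adjusted p = 0.956). Of the monocyte list, S100A9 averaged 155 ± 47.52 CPM in S222A uninduced and 49.09 ± 13.12 CPM in WT uninduced cells (edgeR adjusted p = 0.0179). That call was lost without 4 of the 6 uninduced libraries, with edgeR adjusted p-values up to 0.138.

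Between the induced lines 4 of the 8 members counted were called, all higher in S222A cells, against 6.34% of all tested genes called in either direction and 3.73% called higher. Groups did not overlap for the same 4 genes, against 28% of all tested genes, and the median log2 fold change was 0.53 over the 8 and 0.00 over all genes. Between the uninduced lines 1 of 8 was called, against 0.392% of all tested genes, and 3 of 8 had separate groups (PTAFR, CD38 and CD44), against 12.3%. The median there was 0.26 over the 8 and 0.00 over all tested genes. As the members were chosen with earlier results of these data known, these shares describe them and do not test them against all genes. The induction and line comparisons share libraries, so the values of a gene in them are not independent.

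**Figure D4:**
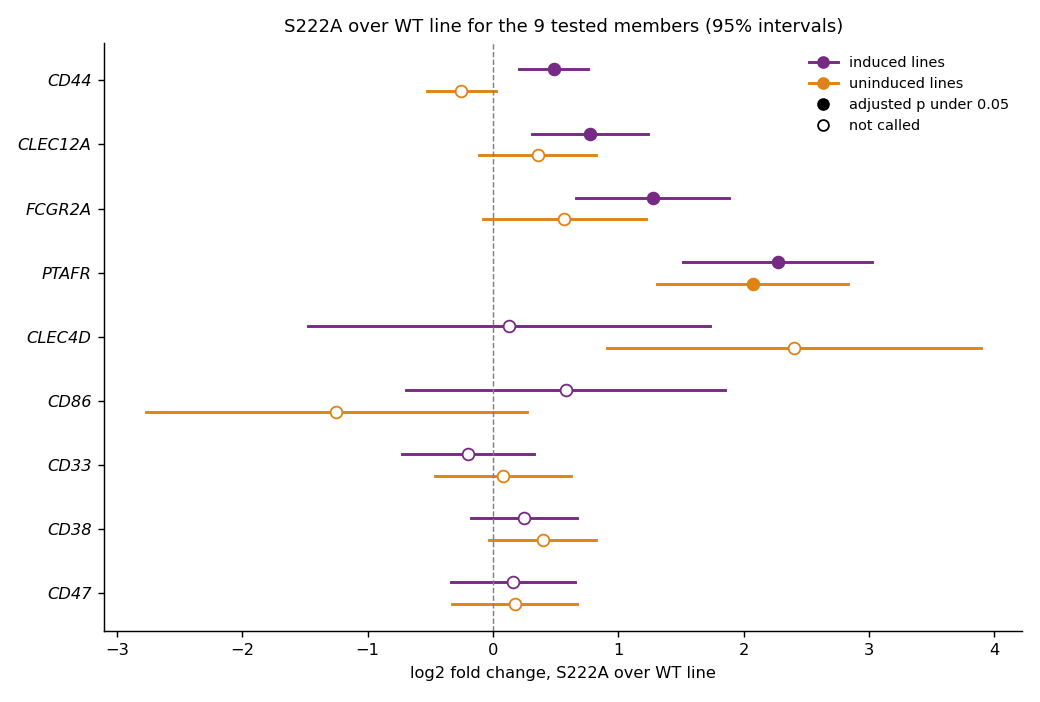
Log2 fold change of the 9 tested members in S222A over WT cells, with 95% intervals, for induced and for uninduced cells; filled points had an edgeR adjusted p under 0.05. PTAFR lies at 2.27 in induced and 2.07 in uninduced cells, and CD44 at 0.48 in induced and -0.25 in uninduced cells.

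IL3RA, the ligand-binding chain of the interleukin-3 receptor, had 0 counts in all 12 libraries, which cannot be read as absence of its RNA. The gene lies in the pseudoautosomal region, which is present on both X and Y. Of 45 genes that GENCODE release 29 lists on both chromosomes, 34 were in the count table, 31 of them were at 0 in every library, and the other 3 had 4 counts in all. CSF2RA, the partner gene of the same region that encodes the GM-CSF receptor chain, was likewise at 0. CSF2RB, the signalling chain both receptors share, lies elsewhere and averaged 12.83 ± 2.484 CPM in S222A induced and 13.09 ± 3.026 CPM in S222A uninduced cells (SD, n = 3 each; edgeR adjusted p = 0.918).

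The members varied together only in part across the 12 libraries, as a description over libraries that share group, line and depth. CLEC12A and FCGR2A had the highest Pearson correlation of log2 CPM, 0.844 over all 12 libraries. Once group means were removed it was 0.689, below the 0.821 of CD86 and FCGR2A, which had 0.537 over all libraries. CD44 and FCGR2A had 0.645 over all libraries and -0.373 within groups. CD33 and CD47 ran opposite ways, at -0.596 over all libraries and -0.582 within groups. Among 8838 other genes of sufficient level, genes most like CD44 over the 12 libraries were KLHL24 (r = 0.96), XYLT1 (0.948) and INSIG1 (0.945). Likewise for PTAFR they were LRG1 (0.969), RGS16 (0.956) and PIWIL4 (0.939), for FCGR2A CERKL (0.946) and FOXO3 (0.937), and for CLEC4D PAK1 (0.91), ARHGDIB (0.884) and SIRPB1 (0.875). Within groups, in the same order, the values were 0.926, 0.649 and 0.597 for CD44 and 0.832, 0.761 and 0.625 for PTAFR. They were 0.794 and 0.744 for FCGR2A and 0.829, 0.48 and 0.422 for CLEC4D, so part of the likeness lay in group means.

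Among other acute myeloid leukaemia surface antigens, 15 of 27 were tested on S222A induction, of which 0 rose and 2 fell. Of all tested genes 2.8% were called higher and 1.66% lower. The lists, like the members, were chosen with earlier results of these data known. MS4A3, a tetraspan protein of granulocyte-monocyte progenitors, averaged 60.89 ± 1.445 CPM in S222A induced and 221.7 ± 24.61 CPM in S222A uninduced cells (SD, n = 3 each), a 3.64-fold fall (edgeR adjusted p = 8.26e-05). FUT4, which makes the CD15 carbohydrate, averaged 136.2 ± 5.688 CPM in S222A induced and 199 ± 4.487 CPM in S222A uninduced cells (edgeR adjusted p = 0.035). In the WT line FUT4 averaged 148 ± 13.92 CPM when induced and 161.2 ± 9.464 CPM when uninduced, so S222A uninduced cells had the highest mean. The fall of MS4A3 stayed called without any of the 12 libraries, while that of FUT4 was lost without any of the 6 S222A libraries (edgeR adjusted p up to 0.15). The list's median log2 fold change was 0.08. MS4A3 was also called for the difference of the induction effects, -1.44 on the log2 scale (edgeR adjusted p = 0.0438), but in only 1 of the 12 fits that left out a library (edgeR adjusted p up to 0.248, without WT uninduced replicate 1).

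Relatives of CLEC12A and CLEC4D were called in both directions on S222A induction, where 2.8% of all tested genes were called higher and 1.66% lower. Of 22 myeloid C-type lectin receptors 11 were tested on S222A induction, 1 rose, 1 fell, 9 were not called, and the median log2 fold change was 0.14. CLEC2D, a ligand of a natural killer cell receptor, rose to 20.49 ± 4.291 CPM in S222A induced cells, against 3.33 ± 3.018 CPM in S222A uninduced cells (log2 fold change 2.23, edgeR adjusted p = 0.0317). CLEC5A, an activating receptor of monocytes, fell to 3.534 ± 1.165 CPM in S222A induced cells, against 10.88 ± 2.373 CPM in S222A uninduced cells (log2 fold change -1.63, edgeR adjusted p = 0.0284). CLEC4E, the neighbour and dimer partner of CLEC4D, averaged 1.893 ± 0.2612 CPM in S222A induced and 5.243 ± 2.406 CPM in S222A uninduced cells and was not called (log2 fold change -1.63, edgeR adjusted p = 0.235). The call of CLEC2D was lost without 5 of the 6 S222A libraries (edgeR adjusted p up to 0.116) and that of CLEC5A without 4 (up to 0.121).

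Around FCGR2A, 3 of 14 Fc receptor genes were tested and none was called on S222A induction; their median log2 fold change was 0.30. FCER1G, the signalling chain that several activating Fc receptors and CLEC4E use, averaged 60.7 ± 33.63 CPM in S222A induced and 28.03 ± 16.09 CPM in S222A uninduced cells (SD, n = 3 each; edgeR adjusted p = 0.242). Of 16 immunoreceptor signalling genes, all tested, INPP5D alone was called on S222A induction, against 4.45% of all tested genes. The median log2 fold change of the 16 was 0.18. INPP5D encodes SHIP1, the phosphatase that inhibitory receptors recruit, and rose to 364.3 ± 36.43 CPM in S222A induced cells, against 223.2 ± 24.93 CPM in S222A uninduced cells (edgeR adjusted p = 0.0332). That call was lost without any of the 6 S222A libraries, with edgeR adjusted p-values up to 0.145.

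Among CD44 ligands and partners 11 of 18 were tested, 0 rose and 1 fell on S222A induction. In that comparison 2.8% of all tested genes were called higher and 1.66% lower. SRGN, the granule proteoglycan serglycin, which CD44 can bind, fell to 2992 ± 515.7 CPM in S222A induced cells, against 6061 ± 483 CPM in S222A uninduced cells (SD, n = 3 each), 2.03-fold lower (edgeR adjusted p = 0.0047), and stayed called without any of the 12 libraries. Among CD47 partners 6 of 9 were tested and 1 fell. SIRPB1, an activating relative of the CD47 receptor, averaged 58.07 ± 4.428 CPM in S222A induced and 91.62 ± 10.36 CPM in S222A uninduced cells (edgeR adjusted p = 0.0281), while SIRPA itself averaged 116.8 ± 21.45 CPM in S222A induced and 119.8 ± 15.45 CPM in S222A uninduced cells (edgeR adjusted p = 0.957). In the WT line SIRPB1 averaged 51.38 ± 6.22 CPM when induced and 59.11 ± 3.704 CPM when uninduced, so S222A uninduced cells had the highest mean. The call of SIRPB1 was lost without 5 of the 6 S222A libraries, with edgeR adjusted p-values up to 0.128 (without S222A induced replicate 2). The median log2 fold change was -0.03 over the CD44 list and -0.50 over the CD47 list. Before induction SRGN was higher in S222A uninduced cells than in WT uninduced cells, which averaged 3319 ± 242 CPM (edgeR adjusted p = 0.0491), a call lost without any of the 6 uninduced libraries (edgeR adjusted p up to 0.29).

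For the remaining families few genes passed the test on S222A induction, where 4.45% of all tested genes were called. Of 20 tested genes of haematopoietic cytokine receptors and their signalling 0 rose and 1 fell, TNFRSF1B, a receptor for tumour necrosis factor (log2 fold change -0.65, edgeR adjusted p = 0.0466), which was lost without any of the 6 S222A libraries (edgeR adjusted p up to 0.202). TNFRSF1B averaged 138.7 ± 15.54 CPM in S222A induced and 218.2 ± 25.32 CPM in S222A uninduced cells. In the WT line it averaged 135 ± 15.78 CPM when induced and 158.7 ± 25.35 CPM when uninduced. None was called among 3 tested Siglec relatives of CD33, 9 genes of CD38 and NAD metabolism, and 7 of the list around the B7 family of CD86. Likewise none was called among 8 lipid mediator and chemoattractant receptors related to PTAFR, and 11 enzymes of platelet-activating factor. The median log2 fold changes of these lists lay between -0.37 (lipid mediator receptors) and 0.23 (cytokine receptors). BST1, the CD38 relative next to it on the chromosome, averaged 39.59 ± 0.6235 CPM in S222A induced and 54.93 ± 2.983 CPM in S222A uninduced cells (SD, n = 3 each; edgeR adjusted p = 0.129).

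Between the induced lines, where 6.34% of all genes were called, the lists held calls in both directions. MS4A3 averaged 60.89 ± 1.445 CPM in S222A induced and 205.6 ± 27.51 CPM in WT induced cells (SD, n = 3 each), 3.39-fold lower (edgeR adjusted p = 5.48e-05), and stayed called without any of the 12 libraries. CLEC5A averaged 3.534 ± 1.165 CPM in S222A induced and 11.25 ± 3.792 CPM in WT induced cells (log2 fold change -1.67, edgeR adjusted p = 0.0186, up to 0.102 with a library of these groups left out). MPO, the neutrophil granule peroxidase, averaged 2.116 ± 1.337 CPM in S222A induced and 8.375 ± 3.37 CPM in WT induced cells (log2 fold change -2.01, edgeR adjusted p = 0.0124, up to 0.0576). INPP5D was higher in S222A induced cells, at 364.3 ± 36.43 CPM, than in WT induced cells, at 225.3 ± 38.06 CPM (edgeR adjusted p = 0.0299, up to 0.137). ITGAX, an integrin of monocytes and dendritic cells, averaged 7.684 ± 0.8714 CPM in S222A induced and 1.865 ± 1.124 CPM in WT induced cells (edgeR adjusted p = 0.0214, up to 0.0949). No gene was called among the Fc receptors, CD44 partners, CD47 partners, CD38 and NAD genes, lipid mediator receptors and platelet-activating factor enzymes. Of the 20 tested genes of cytokine receptors and their signalling, 4 were higher in S222A than in WT cells and 0 lower. Their median log2 fold change was 0.37. STAT5A, a signalling factor and no receptor, averaged 84.54 ± 4.994 CPM in S222A induced and 51.84 ± 9.511 CPM in WT induced cells (edgeR adjusted p = 0.0365). IL10RB, an interleukin-10 receptor chain, averaged 210.1 ± 14.08 CPM in S222A induced and 125.2 ± 13.88 CPM in WT induced cells (SD, n = 3 each; edgeR adjusted p = 0.00956). IFNAR2, a type I interferon receptor chain, averaged 36.16 ± 8.249 CPM in S222A induced and 18.22 ± 2.442 CPM in WT induced cells (edgeR adjusted p = 0.0329). The list around the B7 family also holds receptors and other ligands, such as PVRL2. Of its 7 tested genes, with a median of 0.71, 2 were higher. They were PVRL2 at 44.45 ± 3.979 CPM in S222A induced and 24.78 ± 2.341 CPM in WT induced cells (edgeR adjusted p = 0.0122) and C10orf54, which encodes the checkpoint ligand VISTA, at 19.81 ± 5.195 CPM in S222A induced and 8.44 ± 2.23 CPM in WT induced cells (edgeR adjusted p = 0.0392). SIGLEC14, an activating relative of CD33, averaged 7.649 ± 1.44 CPM in S222A induced and 3.018 ± 0.7163 CPM in WT induced cells (edgeR adjusted p = 0.0361). Each call below was lost at least once when a library of these groups was left out. The edgeR adjusted p-values reached 0.0526 for IL10RB, 0.0822 for PVRL2, 0.13 for IFNAR2 and 0.133 for SIGLEC14. They reached 0.165 for STAT5A and 0.166 for C10orf54. The highest came without WT induced replicate 3 for all but IFNAR2, where it was S222A induced replicate 1.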

How the data were processed

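RNA was sequenced from 12 libraries in 4 groups of 3, assigned by title and description. The authors deposited 1 table of whole-number counts per gene; per the submitters' processing notes, build hg19, STAR 2.4, HTSeq 0.6.1 and DESeq2 were named, without their roles. Annotation and strandedness: not given in the sources used here. The names heading the S222A columns do not carry the allele, and were matched to sample descriptions.

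CPM used TMM-scaled library totals. All 12 libraries were fitted by group in edgeR 4.0.16 (R 4.3.3; TMM, filterByExpr, quasi-likelihood test, 8 residual degrees of freedom), with Benjamini-Hochberg adjustment over 11474 tested genes and a threshold of 0.05. The 11474 genes held 99.47% of counts. Of the alternatives, 7 changed the scaling, tool, filter or design (DESeq2 1.42.0 and limma-voom 3.58.1 among them), and 12 left out a library each; within-depth differences used log2(CPM + 0.5). The script was tested on simulated data. Lengths came from GENCODE release 29 and promoters from RefSeq. Members and lists were chosen with earlier results of these data known. Members, partner genes and up to 3 called genes per list and comparison, by smallest adjusted p, are named. Of the genes most like FCGR2A, 1 is not reported here.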

Additional observations from a re-analysis of the deposited data

How the results depend on the processing

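Counting CLEC4D, S222A induction called 2 members, 1 with a replicate block and 1 to 2 with a library left out; between induced lines 4 were called, 1 with the block and 1 to 4 with a library left out; between uninduced lines 1 was called, 2 with no filter on low counts, 2 with a term for the deepest libraries, 0 with the block, 0 without the deepest library of each group and 0 to 1 with a library left out. For the difference of induction effects 0 became 1 with DESeq2 and 1 with the deepest term, and was 0 with any library left out, as for WT induction. Deviations of same-numbered libraries had correlations of -0.531 to 0.638, median -0.21, over 18 pairs. Of 12 libraries 0 correlated best with their own number. The deepest libraries of different groups, mostly of unlike number, correlated at 0.615 to 0.757. Depth was not removed, so this check cannot tell whether the numbers mark a pairing. With DESeq2 and its own size factors, the median of all genes moved by less than 0.1 on the log2 scale.

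Over all genes, S222A induction called 511, against 811 with DESeq2, 235 with the block, 2052 with the deepest term and 187 to 580 with a library left out. Induced lines gave 727, against 350 with the block, 2480 with the deepest term and 249 to 891 with a library left out. Uninduced lines gave 45, against 83 with DESeq2, 91 unfiltered, 22 with the block, 218 with the deepest term and 17 to 48 with a library left out. The difference gave 9, against 36 with DESeq2, 22 unfiltered, 0 with the block, 147 with the deepest term and 0 to 4 with a library left out. WT induction gave 1, against 4 with DESeq2, 0 with limma-voom, 2 unfiltered, 0 with the block, 6 with the deepest term, and 0 both without the deepest libraries and with any library left out.

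Signs turned only where the gene was not called in that comparison. CD33 between uninduced lines became -0.0014 with limma-voom and -0.0119 without the deepest libraries; CD47 became -0.061 there without the deepest libraries and -0.0219 on WT induction, and its difference of induction effects became 0.0094 unfiltered, 0.0615 with the block and 0.313 without the deepest libraries; CD86 on WT induction became -0.0483 with the deepest term. With a library left out, uninduced-line values ran from -0.161 to 0.2876 for CD33 and -0.1561 to 0.4048 for CD47. Induced-line values ran from -0.0126 to 0.3552 for CD38 and -0.509 to 2.7134 for CLEC4D. Differences of induction effects ran from -0.2461 to 0.3042 for CD47, -2.8976 to 0.3254 for CLEC4D and -0.1159 to 0.4815 for PTAFR. S222A induction values ran from -0.4325 to 0.0278 for CD33, -0.2812 to 0.0822 for CD38, -0.1875 to 0.3664 for CD47, -0.099 to 0.091 for PTAFR, -0.2627 to 0.1143 for CSF2RB and -0.2016 to 0.0855 for SIRPA. WT induction values ran from -0.0511 to 0.2418 for CD33, -0.0032 to 0.2427 for CD38, -0.0853 to 0.1514 for CD47, -0.3154 to 0.3869 for CD86, -0.2128 to 0.2067 for CLEC12A, -2.8284 to 0.3916 for CLEC4D and -0.4714 to 0.1207 for PTAFR. The causes were not tested. Depth limits CD86, with 111 counts over all libraries, and CLEC4D, with 169.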
